A study of Homo sapiens with 12 samples.

Results

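The data concern BMP4, its secreted antagonist GREM1, and 8 genes widely used as readouts of BMP signalling: ID1, ID2, ID3, ID4, MSX1, MSX2, BAMBI and SMAD6. They were taken by name as the probe sets that the array's annotation assigns to these 10 symbols. That gave 23 of the 54675 probe sets on the array, 22 of which carry 1 symbol, and 10 of the 19775 genes that could be tested. For each gene the brightest of its 1-symbol probe sets over all 12 arrays gave the level, in linear intensity units.

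All 12 arrays hold total RNA of H9 cells, a line of human embryonic stem cells at passages 28 to 35, which carried a Tet-on construct for GCNF in every group, the controls included. GCNF, encoded by NR6A1, is an orphan nuclear receptor that acts mainly as a transcriptional repressor, and the construct is switched on by doxycycline (Dox). The labels give 4 groups of 3 arrays. The group d0 was kept undifferentiated in mTeSR, and the group d0 Dox received 1 µg/ml Dox for 4 days. The 2 groups of day 6 were grown in DMEM/F12 with 15% fetal bovine serum and are labelled as having received either 1 µM retinoic acid (RA) or 1 µg/ml Dox for 6 days. The replicates are called biological, with no statement that they came from separate cultures, so p-values measure only the spread between these arrays. Cells without the construct given Dox, and day 6 cells given neither agent, are not analysed here. The day 6 groups differ from the d0 groups in medium, serum and time together, and these cannot be told apart.

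The labels were checked before any direction was drawn from them. At day 0 the NR6A1 probe set that responded most read 26.8 ± 17.6 (SD, n = 3) without Dox and 615 ± 40.8 with it, a log2 difference of 3.96 (limma adjusted p = 6.36e-05). At day 6 the arrays labelled RA had 336 ± 70.9 and those labelled Dox 29.2 ± 13.7, which is against the labels (log2 difference -2.99, limma adjusted p = 0.000109). The 7 NR6A1 probe sets split at day 6: 3 were lower and 3 higher in Dox-labelled cells and 1 did not pass, and the brightest of those higher read 528 for RA-labelled and 1009 for Dox-labelled cells. At day 0, 6 of the 7 rose with Dox. NR6A1 as a whole is thus not of 1 direction at day 6. The 3 probe sets higher in Dox-labelled cells read less there than at d0 (408 against 705, 365 against 579 and 1009 against 1457). The 3 lower ones read 29.2 against 26.8, 166 against 121 and 176 against 120. With Dox at day 0 the log2 rises were 0.62, 0.85 and 0.97 for the former and 3.96, 1.79 and 2.33 for the latter. CYP26A1, the enzyme that clears RA and a direct RA target, read 271 ± 37.0 under the RA label and 29594 ± 1005 under the Dox label, and all 5 measured genes of a list of RA response genes were higher in the Dox-labelled group. The names RA-labelled and Dox-labelled are therefore used throughout for day 6. Every day 6 direction rests on labels that the RA response genes and 3 of the NR6A1 probe sets go against, and comparisons of each day 6 group with both d0 groups are given for that reason.

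Signal on the arrays was even: the deposited columns had been scaled to 1 trimmed mean, replicates of a group correlated at 0.980 to 0.982 over all probe sets, and 23.1% to 26.5% of probe sets lay under 16 units, the constant added before log2. Genes of the pluripotent state fell in both day 6 groups, with a summed level of 92541 to 99428 on the d0 arrays, 81886 to 85172 on the d0 Dox arrays and 16922 to 19750 over the day 6 arrays. The 3′ to 5′ ratio of the ACTB control probe sets, a sign of RNA integrity, was 3.24 ± 0.139 at d0, 3.86 ± 0.0111 at d0 Dox, 2.59 ± 0.290 in RA-labelled and 2.33 ± 0.0580 in Dox-labelled cells of day 6 (n = 3 each). Its part in the results was not tested.

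BMP4 is a secreted ligand of the TGF-beta superfamily. It binds paired serine/threonine kinase receptors, which phosphorylate SMAD1, SMAD5 and SMAD9. These join SMAD4, enter the nucleus and switch on target genes, among them the ID genes, whose products are helix-loop-helix proteins without a DNA-binding region that hold back differentiation factors, and the homeobox genes MSX1 and MSX2. BAMBI, a receptor-like protein with no kinase, and SMAD6, an inhibitory SMAD, are induced by the same signal and dampen it, while GREM1 traps BMP2 and BMP4 outside the cell. In human embryonic stem cells BMP4 is known for driving exit from the pluripotent state, towards mesoderm or towards trophoblast- and amnion-like cells according to the medium.

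Sequences in front of the transcription starts of some of these genes are shown, because most of the 10 are textbook targets of 1 pathway. Each is the 250 bases before a RefSeq start (GRCh38.p14), read along the gene's strand, with capitals on GGCGCC and GGAGCC, GC-rich elements that SMAD1 and SMAD5 can bind, on either strand. The 10 genes matched 13 such windows, because BMP4 has 3 starts and GREM1 2. Every window printed here holds at least 1 of these elements, so the printed windows are not a fair sample of the 13. The windows of ID2 and MSX2 held neither element, and neither did another BMP4 start and the other GREM1 start. ID4 and MSX1 held GGAGCC and are not printed. The windows lie at chr20:31605039-31605288, plus strand, for ID1; chr1:23559502-23559751, minus strand, for ID3; chr10:28677271-28677520, plus strand, for BAMBI; chr15:66701986-66702235, plus strand, for SMAD6; chr14:53955051-53955300, minus strand, for the BMP4 start shown; and chr15:32717754-32718003, plus strand, for the GREM1 start shown.
ID1: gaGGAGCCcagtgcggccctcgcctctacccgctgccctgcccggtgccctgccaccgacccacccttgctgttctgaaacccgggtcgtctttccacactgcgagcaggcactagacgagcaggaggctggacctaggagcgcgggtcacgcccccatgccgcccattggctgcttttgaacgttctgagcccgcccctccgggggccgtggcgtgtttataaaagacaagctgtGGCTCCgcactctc
ID3: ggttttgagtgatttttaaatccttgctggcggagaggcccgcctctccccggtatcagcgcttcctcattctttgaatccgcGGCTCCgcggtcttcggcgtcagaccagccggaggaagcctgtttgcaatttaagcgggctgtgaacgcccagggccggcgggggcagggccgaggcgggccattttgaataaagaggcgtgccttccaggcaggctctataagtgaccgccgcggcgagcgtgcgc
BAMBI: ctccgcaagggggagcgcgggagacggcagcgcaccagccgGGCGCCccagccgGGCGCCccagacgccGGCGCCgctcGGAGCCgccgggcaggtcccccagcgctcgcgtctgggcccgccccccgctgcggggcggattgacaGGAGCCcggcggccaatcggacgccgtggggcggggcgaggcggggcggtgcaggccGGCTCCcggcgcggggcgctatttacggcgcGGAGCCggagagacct
SMAD6: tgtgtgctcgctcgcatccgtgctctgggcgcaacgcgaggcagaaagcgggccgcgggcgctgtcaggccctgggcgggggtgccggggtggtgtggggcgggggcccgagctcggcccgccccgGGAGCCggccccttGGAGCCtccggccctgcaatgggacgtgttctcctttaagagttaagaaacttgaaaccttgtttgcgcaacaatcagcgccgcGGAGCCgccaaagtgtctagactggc
BMP4: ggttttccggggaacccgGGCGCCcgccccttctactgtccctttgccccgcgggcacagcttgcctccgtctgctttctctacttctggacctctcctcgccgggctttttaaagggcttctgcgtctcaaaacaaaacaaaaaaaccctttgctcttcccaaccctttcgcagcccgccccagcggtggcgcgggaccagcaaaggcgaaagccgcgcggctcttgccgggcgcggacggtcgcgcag
GREM1: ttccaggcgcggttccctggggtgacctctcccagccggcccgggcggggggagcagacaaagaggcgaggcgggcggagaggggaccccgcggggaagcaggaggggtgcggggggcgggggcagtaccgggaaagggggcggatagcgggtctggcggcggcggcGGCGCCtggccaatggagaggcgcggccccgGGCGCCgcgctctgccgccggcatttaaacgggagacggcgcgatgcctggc
BAMBI held the most of these elements, 3 of GGCGCC and 4 of GGAGCC, and no 2 of them overlapped. ID1 held 2 of GGAGCC, SMAD6 held 3 and ID3 held 1. Over all 10 genes, GGCGCC was in a window of 3 genes and GGAGCC in a window of 7, counting 3 of 13 and 7 of 13 windows, against 16.4% and 30.6% of the 35116 promoter windows of this length in the table. The palindrome GTCTAGAC, bound by SMAD3 and SMAD4, was in 1 of the 10 genes, SMAD6, where it stands in lower case 12 bases before the start, and in 0.18% of all windows. The nuclear receptor element TCAAGGTCA, which GCNF can bind, was in none of the 13 windows and in 0.32% of all windows. These matches describe the letters only, and binding was not measured.

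At day 0, cells given Dox were compared with untreated cells, both kept in stem cell medium. Effects of Dox itself and of the construct it switches on cannot be told apart here. BMP4 and 3 of the 4 ID genes rose: BMP4 2.12-fold, ID2 2.66-fold, ID3 3.0-fold and ID4 3.80-fold. MSX2 rose 1.65-fold from a low level. ID1, MSX1, BAMBI and SMAD6 did not pass the test, and neither did GREM1. In all, 5 of 10 members rose and none fell, where 12.9% of the 19775 genes were called, 7.75% higher and 5.16% lower (limma, Benjamini-Hochberg adjusted p under 0.05). The median log2 change of the members was 0.58 and that of all genes 0.03. Genes of the pluripotent state moved beside these rises: of 7 measured, 3 fell, 1 rose and 3 did not pass, with a median log2 change of -0.53. The homeobox gene NANOG, central to that state, read 11672 at d0 and 5468 with Dox (limma adjusted p = 2.05e-05), L1TD1 fell from 18022 to 11279 (limma adjusted p = 0.000315), and SOX2 rose from 16978 to 21619 (limma adjusted p = 0.0468). Among markers of other cell types, MAP2 and DCX of 6 neural genes rose and TUBB3 fell, PAX3 rose of 5 neural crest genes, and of 4 endothelial genes TEK rose and KDR fell. No gene of the cardiac, endoderm, mesenchyme or trophoblast and amnion lists rose. MYL7 and ACTC1 fell of 3 cardiac genes, CXCR4 of 5 endoderm, THY1 of 8 mesenchyme and IGFBP3 of 6 trophoblast and amnion genes. The part of these in the rises of BMP4 and the ID genes was not tested. In bulk RNA, more cells that express a gene and more RNA per cell cannot be told apart.

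BMP4 itself read 476, 388 and 530.0 on the d0 arrays and 895, 981 and 1116 on the d0 Dox arrays. The groups did not overlap, and the lowest induced array was well above the highest control. The log2 change was 1.08 ± 0.12 (SE, limma adjusted p = 0.000383).

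ID2 read 2034, 2134 and 2064 at d0 and 5296, 5575 and 5809 at d0 Dox, a log2 change of 1.41 ± 0.10 (limma adjusted p = 2.32e-05). ID3 read 2445, 2265 and 2646 at d0 and 7276, 7508 and 7315 at d0 Dox, a change of 1.58 ± 0.07 (limma adjusted p = 1.67e-06). ID4 read 977, 817 and 869 at d0 and 3177, 3643 and 3438 with Dox, a change of 1.93 ± 0.09 (limma adjusted p = 1.67e-06). In each of these genes the 3 induced arrays stood together, far from the 3 controls.

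ID1 differed from the other ID genes in its values. It read 7347, 7352 and 7404 at d0 and 7759, 6584 and 6254 at d0 Dox, so the induced arrays lay on both sides of the controls. Its log2 change was -0.11 (95% interval -0.30 to 0.09, limma adjusted p = 0.493). The interval holds no rise as large as that of the other ID genes, whose lowest 95% bound was 1.19. The difference between genes was not itself tested.

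Among the homeobox and feedback genes, MSX2 read 124, 162 and 122 at d0 and 194, 266 and 243 at d0 Dox, without overlap (log2 change 0.72 ± 0.14, limma adjusted p = 0.00758). That call was lost with the 6 arrays of day 0 alone (limma adjusted p = 0.0552) and with the mean of its probe sets (0.38, limma adjusted p = 0.143). MSX1 overlapped, with 140.5, 155 and 106 against 139, 199 and 176 (log2 change 0.32, limma adjusted p = 0.225). Of the feedback inhibitors, BAMBI read 2782, 2527 and 2876 at d0 and 2363, 2368 and 2409 with Dox (log2 change -0.19, 95% interval -0.38 to -0.01, limma adjusted p = 0.170). SMAD6 read 379, 426 and 365 at d0 and 280.4, 386 and 348 with Dox (log2 change -0.21, 95% interval -0.47 to 0.06, limma adjusted p = 0.307). The BAMBI arrays did not overlap and those of SMAD6 did, and neither difference passed the test.

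GREM1 read 1684, 1949 and 1716 at d0 and 2817, 2091 and 2450.3 at d0 Dox. The groups did not overlap, but the induced arrays spread widely, and the log2 change of 0.45 (95% interval 0.11 to 0.79) did not pass (limma adjusted p = 0.0847). Its other probe set rose from 1265 to 1865, a log2 change of 0.55 (limma adjusted p = 0.0161 over all probe sets). Over the members as a whole, 7 of 10 had groups that did not overlap, against 31.5% of all genes.

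**Figure D1:**
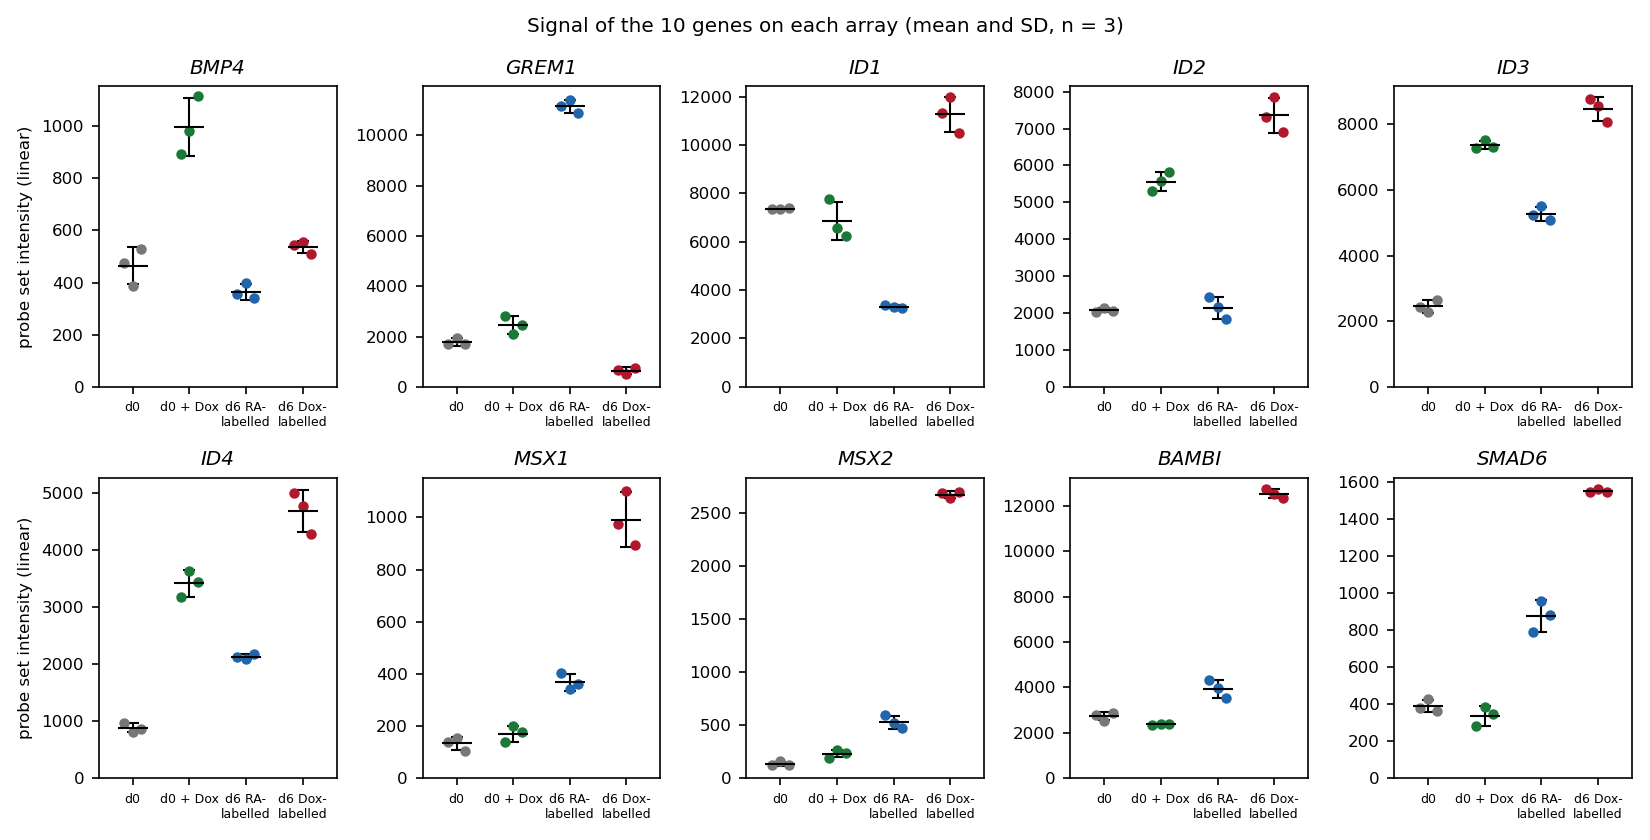
Linear probe set intensity of each of the 10 genes on every array, by group: points are arrays, and the dash and bars are the mean and SD of 3. Each gene has its own axis from 0. BMP4 is highest at d0 Dox, GREM1 highest in the RA-labelled group, and the remaining 8 genes are highest in the Dox-labelled day 6 group.

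The day 6 groups, which by their labels share medium and time and differ in the agent, separated every member. GREM1 was 17.1-fold lower in the Dox-labelled than in the RA-labelled group, and the other 9 genes were higher: MSX2 4.94-fold, ID2 3.43-fold, ID1 3.38-fold, BAMBI 3.17-fold, MSX1 2.62-fold, ID4 2.19-fold, SMAD6 1.76-fold, ID3 1.60-fold and BMP4 1.46-fold. All 10 passed the test and none overlapped, where 25.9% of all genes were called, 13.7% higher and 12.2% lower, and 41.6% did not overlap. The median log2 difference of the members was 1.26 and that of all genes 0.00089.

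GREM1 read 11192, 11410.4 and 10901 on the RA-labelled arrays and 678, 502 and 755 on the Dox-labelled arrays, a log2 difference of -4.10 ± 0.15 (limma adjusted p = 8.65e-08). It was the one member lower in the Dox-labelled group. Its other probe set showed the same order, with 7994 and 642.5 (log2 difference -3.61, limma adjusted p = 4.29e-08).

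The ligand had the smallest log2 difference of the 10 members, its antagonist the largest. BMP4 read 355, 399 and 339.6 on RA-labelled and 544, 556 and 510.3 on Dox-labelled arrays, a log2 difference of 0.54 ± 0.12 (limma adjusted p = 0.00859). The groups were apart, but the Dox-labelled arrays lay only just above or within the range of the d0 arrays.

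ID1, which did not pass at day 0, was well separated here. The RA-labelled arrays had 3386, 3283 and 3276 and the Dox-labelled ones 11303, 11977 and 10509 (log2 difference 1.76 ± 0.09, limma adjusted p = 5.69e-07). ID2 read 2433, 2168 and 1831 against 7319, 7851 and 6906 (1.78 ± 0.10, limma adjusted p = 1.51e-06). ID4 read 2124, 2091 and 2176 against 5011, 4779 and 4284 (1.13 ± 0.09, limma adjusted p = 1.30e-05). ID3 had the smallest gap of the family: 5249, 5506 and 5072 against 8784, 8561 and 8064 (0.68 ± 0.07, limma adjusted p = 0.000101). In all 4 genes every Dox-labelled array was above every RA-labelled one.

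MSX2 read 595, 525 and 473 on RA-labelled and 2694, 2642 and 2698 on Dox-labelled arrays (2.31 ± 0.14, limma adjusted p = 1.99e-06). MSX1 read 404, 341 and 359.6 against 973, 1103 and 895 (1.39 ± 0.15, limma adjusted p = 0.000121). BAMBI read 4330.5, 3974 and 3541 against 12718, 12520.2 and 12342 (1.67 ± 0.08, limma adjusted p = 5.96e-07). SMAD6 read 789.6, 959 and 881 against 1545, 1558 and 1546 (0.82 ± 0.12, limma adjusted p = 0.000634). The homeobox genes and both feedback inhibitors thus had their highest arrays in the same group as the ID genes.

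Markers of cell types were called too at day 6, where 25.9% of all genes were called. Of 6 measured genes of a trophoblast and amnion list of 8, IGFBP3 (2448 to 26619.9) and KRT7 (1831 to 5024) were higher in the Dox-labelled group. The other 4 did not pass, so the share called was near that of all genes. The list's summed level was 3795 to 5225 on the RA-labelled and 30941 to 32636 on the Dox-labelled arrays, and most of that difference is IGFBP3. CGA, a defining trophoblast gene, stayed under 16 units in every group. Of 8 mesenchyme genes 3 were higher (POSTN, TWIST1 and DCN) and 2 lower (PDGFRB and THY1), with sums of 47990.0 to 56468 and 62406 to 66126. Of 5 neural crest genes, NGFR and TFAP2B were higher and PAX3 lower. Of 7 measured genes of the pluripotent state 2 were higher and 5 lower. Of 6 neural genes 2 were higher, of 3 cardiac genes 2 were higher and of 4 endothelial genes 1 was higher. Of 5 endoderm genes 1 was lower. The part of these markers in the differences of the ID, MSX, BAMBI and SMAD6 genes was not tested.

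**Figure D2:**
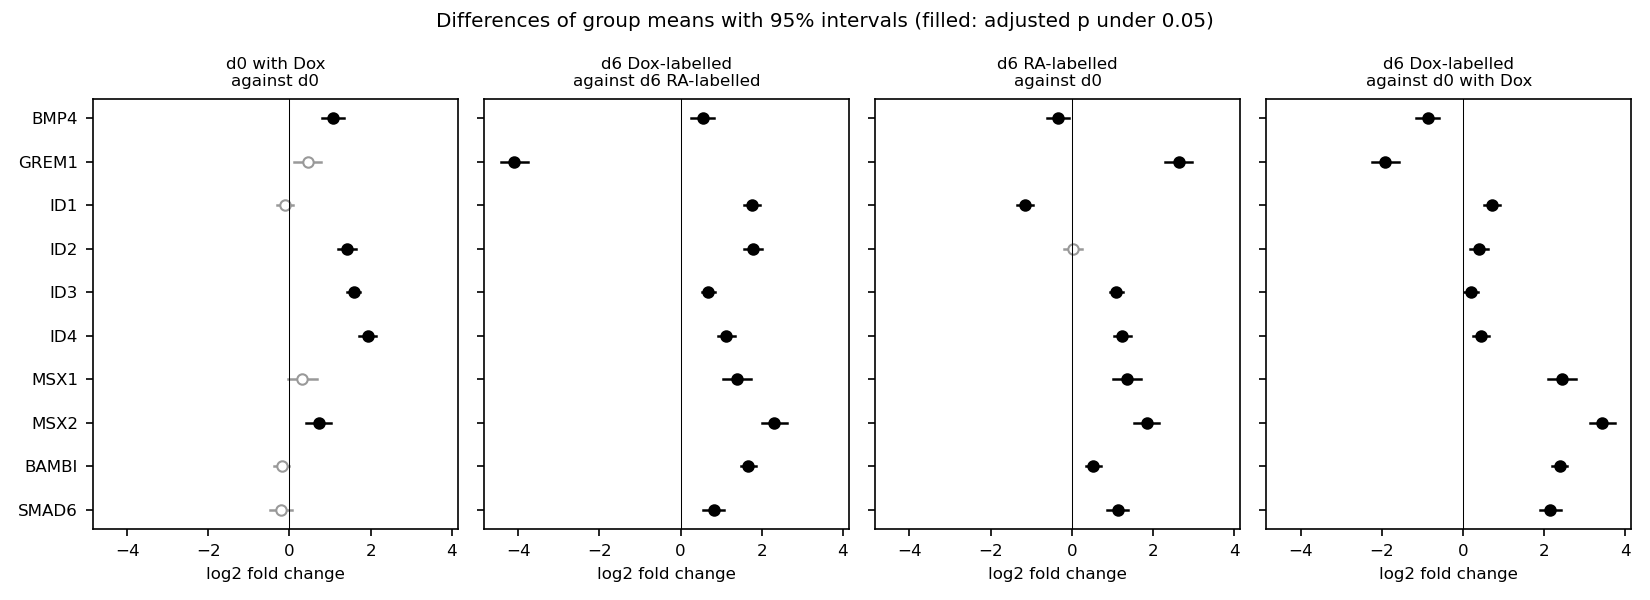
Log2 difference of each of the 10 genes in the 4 main comparisons, with bars for the 95% interval (limma, 3 arrays a group) and filled points for those that passed. At day 0 the changes run from -0.21 for SMAD6 to 1.93 for ID4, and at day 6 all but GREM1, at -4.10, lie above 0.

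Day 6 was set against day 0 in 2 main comparisons, the RA-labelled group with d0 and the Dox-labelled group with d0 Dox. By the labels, the Dox-labelled cells had Dox for 6 days and the d0 Dox cells for 4 days in mTeSR. The group d0 Dox was thus a parallel group and not a known starting point of the Dox-labelled cells. From d0 to the RA-labelled group 7 of 10 members rose, 2 fell and 1 did not pass, where 50.5% of all genes were called, 25.3% higher and 25.2% lower. From d0 Dox to the Dox-labelled group 8 rose and 2 fell, where 46.1% of all genes were called, 22.2% higher and 23.9% lower. With shares this high, a call by itself sets a member little apart, and the sizes are the information.

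The rise of the MSX genes, BAMBI and SMAD6 was larger towards the Dox-labelled group. MSX2 rose by 1.85 on the log2 scale from d0 to the RA-labelled group (limma adjusted p = 1.19e-06) and by 3.44, or 10.9-fold, from d0 Dox to the Dox-labelled group (limma adjusted p = 2.39e-08). BAMBI rose by 0.53 (limma adjusted p = 0.000329) and by 2.39, or 5.23-fold (limma adjusted p = 9.93e-09). SMAD6 rose by 1.14 (limma adjusted p = 1.49e-05) and by 2.16, or 4.46-fold (limma adjusted p = 2.04e-07), and MSX1 by 1.37 and 2.43. These 4 genes were lower in both d0 groups than in either day 6 group. The difference between the 2 rises was not tested as an interaction.

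The ID genes differed in how day 6 stood against day 0. ID1 fell towards the RA-labelled group by 1.15 (limma adjusted p = 1.40e-06) and rose by 0.72 towards the Dox-labelled group (limma adjusted p = 6.30e-05). ID2 did not pass towards the RA-labelled group, with a log2 difference of 0.04 (95% interval -0.19 to 0.26, limma adjusted p = 0.814), and rose by 0.40 towards the Dox-labelled group (limma adjusted p = 0.00795). ID3 and ID4 rose by 1.10 and 1.25 from d0 to the RA-labelled group. Against d0 Dox, where both were already high, they were higher by 0.20 (limma adjusted p = 0.0484) and 0.45 (limma adjusted p = 0.00196) in the Dox-labelled group. Against d0 they were higher there by 1.78 and 2.38. The ID3 rise sat at the threshold: it was lost without 1 array at a time for 9 of the 12 arrays, namely d0 replicate 1, d0 Dox replicates 1 to 3, RA-labelled replicates 1 to 3 and Dox-labelled replicates 1 and 2, with limma adjusted p from 0.0557 to 0.143.

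BMP4 fell from d0 Dox to the Dox-labelled group by 0.87 on the log2 scale (limma adjusted p = 0.000185). Its decrease from d0 to the RA-labelled group, a log2 difference of -0.33, was small, the arrays overlapped, and the limma adjusted p was 0.0456. That call was lost without d0 replicate 1 or 3, without d0 Dox replicate 2, without RA-labelled replicate 1 or 3, and without Dox-labelled replicate 1, 2 or 3, with limma adjusted p from 0.0575 to 0.160, and with median centring, where the difference was -0.24 (limma adjusted p = 0.192). GREM1 rose 6.23-fold to the RA-labelled group (limma adjusted p = 1.84e-07) and decreased by 1.91 on the log2 scale to the Dox-labelled group (log2 difference -1.91, limma adjusted p = 2.87e-06).

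Because the day 6 labels were in doubt, the crossed comparisons were made too. They share their groups with the comparisons above. From d0 to the Dox-labelled group, where 48.5% of genes were called (24.6% higher, 23.8% lower), 8 members rose, GREM1 fell by 1.46, and BMP4 did not pass (log2 difference 0.21, 95% interval -0.06 to 0.49, limma adjusted p = 0.189). MSX2 had the largest rise among the members there, 17.9-fold (limma adjusted p = 6.19e-09). From d0 Dox to the RA-labelled group, where 48.3% of genes were called (23.0% higher, 25.3% lower), BMP4, ID1, ID2, ID3 and ID4 fell and GREM1, MSX1, MSX2, BAMBI and SMAD6 rose. BMP4 fell there by 1.41 (limma adjusted p = 4.69e-06), ID2 by 1.38 and ID3 by 0.48. The higher level of MSX1, MSX2, BAMBI and SMAD6 at day 6 was thus called from either d0 group to either day 6 group.

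Each gene's 4 group levels were placed in order and the neighbours in that order tested, which gave 30 pairs, of which 23 differed at a limma adjusted p under 0.05. BMP4 ran from the RA-labelled group (364 ± 30.6) through d0 (465 ± 71.5) and the Dox-labelled group (537 ± 23.9) to d0 Dox (997 ± 111), with d0 and the Dox-labelled group not told apart (SD, n = 3 throughout). GREM1 ran from the Dox-labelled group (645 ± 129) through d0 (1783 ± 145) and d0 Dox (2453 ± 363), which were not told apart, to the RA-labelled group (11168 ± 256). No other member had either of these orders.

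ID3 and ID4 shared the order d0, RA-labelled, d0 Dox, Dox-labelled, with all neighbours apart. Their means were 2452 ± 191, 5276 ± 218, 7366 ± 124 and 8469.7 ± 368 for ID3, and 888 ± 81.7, 2130.4 ± 42.8, 3419 ± 234 and 4691 ± 372 for ID4. ID2 had the same order, with d0 (2078 ± 51.1) and the RA-labelled group (2144 ± 302) not told apart, then 5560.0 ± 257 and 7359 ± 474. ID1 had its lowest level in the RA-labelled group (3315 ± 61.9), with d0 Dox (6866 ± 791) and d0 (7367 ± 31.4) not told apart, and the Dox-labelled group highest (11263 ± 735).

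MSX1, MSX2, BAMBI and SMAD6 all placed the d0 groups lowest, the RA-labelled group next and the Dox-labelled group highest. The d0 groups were apart for MSX2 alone (136 ± 22.8 and 234 ± 37.0). The day 6 means were 368 ± 32.1 and 990.4 ± 105 for MSX1, 531 ± 61.3 and 2678 ± 31.2 for MSX2, 3949 ± 395 and 12527 ± 188 for BAMBI, and 876 ± 84.8 and 1549.7 ± 7.53 for SMAD6. Intensities of different probe sets have no common scale, so only the orders are compared between genes.

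**Figure D3:**
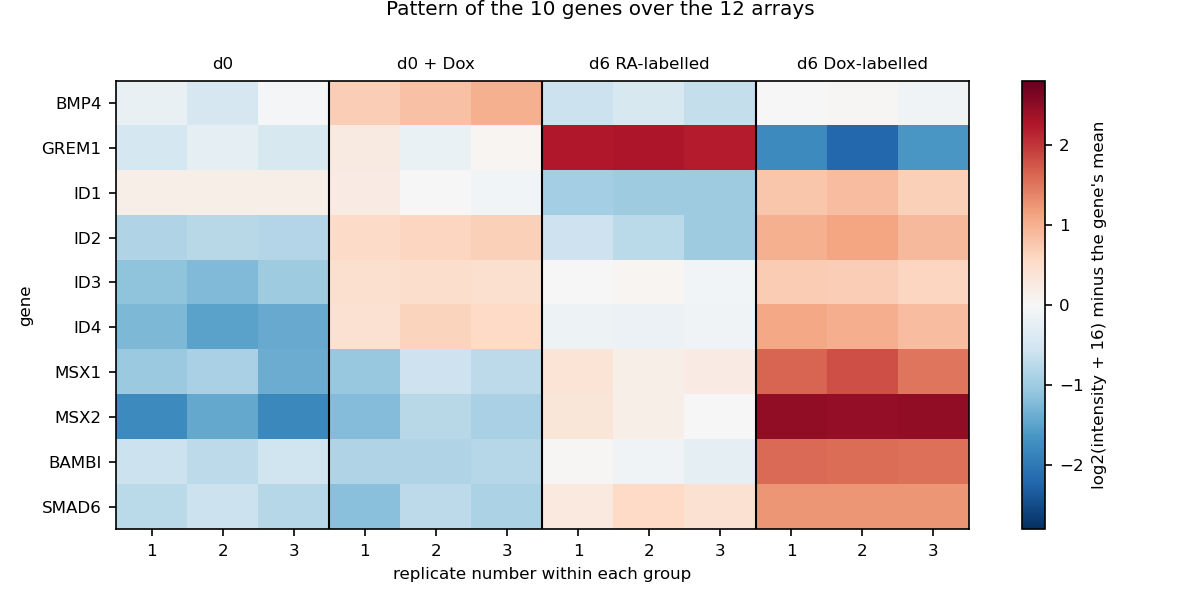
Each gene's log2 level on each of the 12 arrays (columns, 3 per group) as a difference from its mean over all arrays, shown as a colour from -2.8 to 2.8. ID2, ID3 and ID4 are raised at d0 Dox and in the Dox-labelled day 6 group, while MSX1, MSX2, BAMBI and SMAD6 are low in both d0 groups and GREM1 is high in the RA-labelled group alone.

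How alike the patterns were was described by the root mean square difference of centred log2 levels over the 12 arrays, where 0 means the same profile. Among the members, ID3 and ID4 were nearest (0.237), then MSX1 and SMAD6 (0.333), BAMBI and SMAD6 (0.353), and MSX1 and BAMBI (0.355). ID2 lay 0.449 from ID4, and MSX1 0.525 from MSX2.

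Over 9888 genes of at least median level, those with profiles nearest to BMP4 were CHN1, a Rac GTPase-activating protein (0.129), ZNF423, a zinc finger partner of SMADs (0.167), and COL13A1, a transmembrane collagen (0.171). CHN1 read 1444, 3112, 1257 and 1867 in d0, d0 Dox, RA-labelled and Dox-labelled order. Nearest to ID1 were NFIB, a nuclear factor I gene (0.116), NET1 (0.126) and SPOCK1 (0.129). MSX2 was nearest to SOX9, a transcription factor of neural crest and cartilage (0.201), CCDC71L (0.270) and SKAP2 (0.296). GREM1 had no close neighbour: the nearest, PSG4, MYL4 and ADAM33, lay 0.572, 0.774 and 0.780 away, and PSG4 belongs to a family of near-identical genes whose signal can mix.

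The other probe sets of the members were used as a check within each gene. BMP4, ID1, ID3 and BAMBI have 1 each. Of the 22 probe sets with 1 symbol, 10 rose, none fell and 12 did not pass at day 0 with Dox, where 5.81% of all probe sets were called. At day 6, 13 were higher in the Dox-labelled group, 2 lower and 7 did not pass, where 15.5% were called. The other ID2 probe set moved more than the brightest one, by 2.24 at day 0 and 2.39 at day 6 on the log2 scale. Of the other ID4 probe sets, 2 moved by 1.71 and 1.96 at day 0 and by 1.04 and 1.02 at day 6, and another, brighter than the second of these, by 0.81 and 0.72 without passing (limma adjusted p = 0.102 and 0.0886). A second MSX2 probe set moved by 0.75 (limma adjusted p = 0.0162) and 2.03 (limma adjusted p = 1.37e-05). Probe sets that did not move were mostly dim: 15.7 to 23.6 units for the remaining one of MSX2, 60.2 to 105 for the second of MSX1, and 9.6 to 54.7 for the 3 others of SMAD6. Also dim was the remaining ID4 probe set, at 29.7 to 51.1 units. It passed neither at day 0 (0.51, limma adjusted p = 0.298) nor at day 6 (0.40, limma adjusted p = 0.336). With all probe sets of a gene averaged, the calls of SMAD6 at day 6 (0.20, limma adjusted p = 0.481) and from d0 to the RA-labelled group (0.28, limma adjusted p = 0.221) were lost, so the SMAD6 result rests on 1 probe set.

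**Figure D4:**
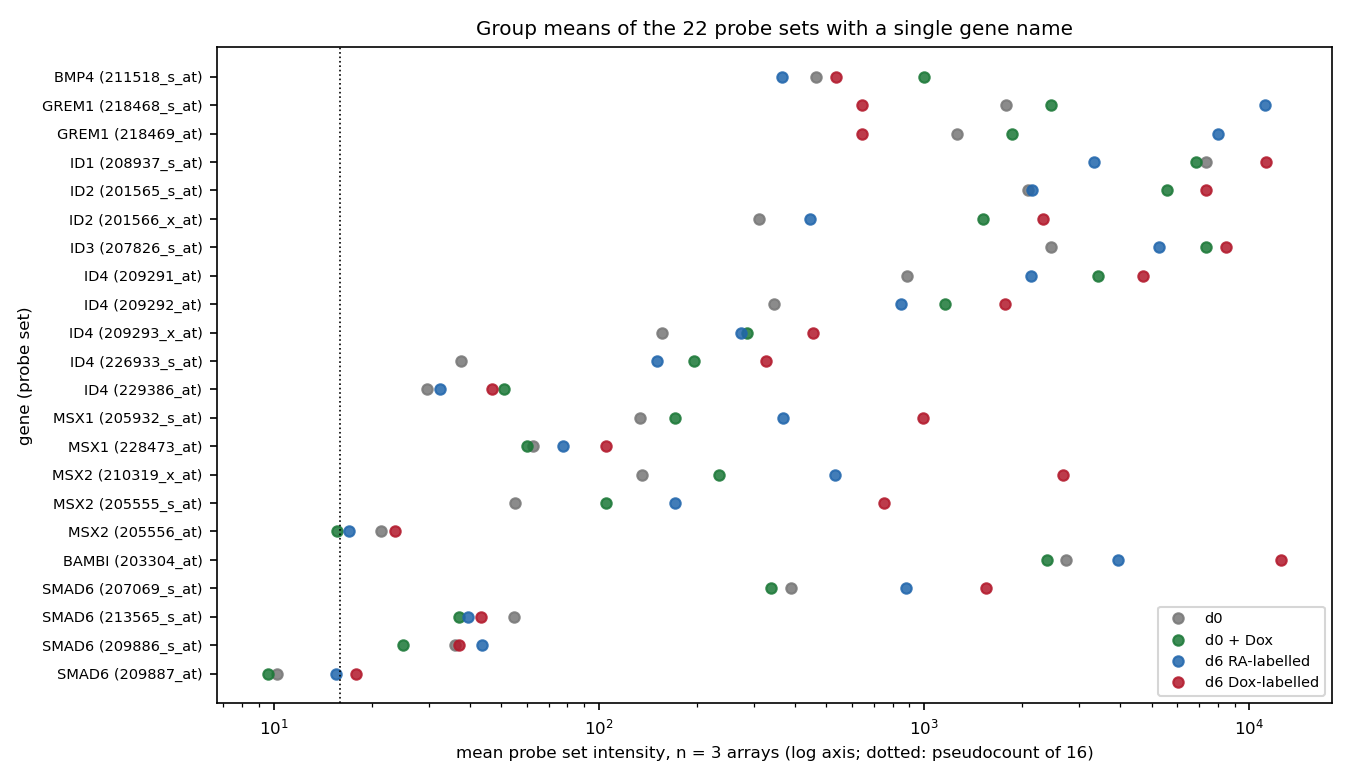
Mean intensity (3 arrays, log axis) of each of the 22 probe sets with 1 symbol, 1 line per probe set and 1 colour per group, with a dotted line at 16 units. Both GREM1 probe sets are highest in the RA-labelled group, and the 3 further SMAD6 probe sets lie between 9.6 and 54.7.

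The rest of the pathway was read from lists of ligands, receptors, SMADs, antagonists and further responsive genes that hold none of the members. The lists were written with earlier results of these data known, so their counts are not an independent check of the members. Of 16 measured antagonists, 5 rose with Dox at day 0, none fell (1 under quantile normalization) and 11 did not pass, with a median log2 change of 0.36. Follistatin (FST), which binds activins and some BMPs, rose from 2935 ± 63.0 to 13693 ± 14.6 (log2 change 2.22, limma adjusted p = 8.89e-08). Chordin (CHRD), which sequesters BMPs, rose from 33.0 to 119 (1.48, limma adjusted p = 0.000447). Of 15 ligands 2 rose and none fell, a share near the 12.9% of all genes called: BMP5 from 43.3 to 172 (1.67, limma adjusted p = 2.30e-05) and GDF11 from 431 to 673 (0.62, limma adjusted p = 0.0114).

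At day 0, where 12.9% of all genes were called, 2 of 10 measured receptors and coreceptors rose. RGMA rose by 0.68 and the activin receptor ACVR2B by 0.27. Of 11 SMADs and their inhibitors 2 rose and 2 fell. SMAD9, a BMP-regulated SMAD, rose by 0.78 (limma adjusted p = 0.00356), and SMAD7, an inhibitory SMAD of TGF-beta and BMP signals, fell from 1891 to 869.6 (log2 change -1.11, limma adjusted p = 7.40e-06). SKIL, a SMAD corepressor, fell from 9019 to 4377 (log2 change -1.02, limma adjusted p = 0.00116). Of 16 further responsive genes 4 rose and 1 fell: TFAP2A, a surface ectoderm and neural crest factor, rose from 285 to 771 (1.39, limma adjusted p = 7.99e-05), the homeobox gene DLX5 from 22.2 to 61.3 (1.03, limma adjusted p = 0.0189), and HEY1, a Notch and BMP target, fell from 1260.1 to 445 (log2 change -1.47, limma adjusted p = 7.40e-06).

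At day 6, 9 of the 16 further responsive genes were higher in the Dox-labelled group, none was lower and 7 did not pass. Of all genes 25.9% were called, 13.7% higher. The median log2 difference of the list was 1.05. ISL1, a LIM homeobox gene of cardiac and limb mesoderm, read 65.6 under the RA and 443 under the Dox label (2.50, limma adjusted p = 3.16e-06), and TBX3 read 137 and 705 (2.24, limma adjusted p = 1.44e-05). Of 15 ligands 3 were higher and 1 lower, a share near the 25.9% of all genes called. BMP2, the ligand closest to BMP4, read 492 and 1184 (1.24, limma adjusted p = 1.84e-05), GDF10 read 13.4 and 101 and so started under 16 units, and GDF5 was lower, at 99.5 and 35.0 (log2 difference -1.23, limma adjusted p = 0.0308).

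Antagonists were called in both directions at day 6. Of 16 measured, 8 were lower in the Dox-labelled group, 3 higher and 5 did not pass, where 25.9% of all genes were called. Their median log2 difference was -0.48. FST read 3252 and 1072 (log2 difference -1.59, limma adjusted p = 1.63e-07) and CER1, a secreted inhibitor of Nodal and BMP, 79.0 and 35.7 (-0.95, limma adjusted p = 0.0387). SOSTDC1, at 3.98 and 79.9, and BMPER (0.97, limma adjusted p = 0.0183) were higher. GREM1 is a member and is not in that count, and no share was tested against the rest of the genes.

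Of 10 measured receptors and coreceptors none was higher at day 6 and 8 did not pass, a share called below that of all genes (25.9%). BMPR1A, also on the list, could not be matched to a tested gene. The BMP type II receptor BMPR2 (7735 and 4437, log2 difference -0.80, limma adjusted p = 1.73e-05) and BMPR1B, a type I receptor (648 and 282, -1.15, limma adjusted p = 9.04e-05), were lower. Of 11 SMADs and inhibitors 4 were higher and 3 lower. SMAD9 read 659.6 and 1300.5 (0.97, limma adjusted p = 0.000372), and SMAD1, a BMP-regulated SMAD, was higher by 0.34 (limma adjusted p = 0.0236). SMURF2, a ubiquitin ligase of the pathway, read 6421 and 4239.9 (-0.59, limma adjusted p = 0.000372), and the corepressor SKI differed by -0.42 (limma adjusted p = 0.00697).

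From day 0 to day 6 each of these lists had called genes in both directions. From d0 to the RA-labelled group 7 of 16 antagonists rose and 2 fell, a share near the 50.5% of all genes called. From d0 Dox to the Dox-labelled group 7 rose and 6 fell, where 46.1% of all genes were called. CER1 fell in both, from 1393 to 79.0 and from 794 to 35.7, while FSTL3, a follistatin-like antagonist, rose by 2.86 and 2.35. FST fell from 13693 to 1072 in the second (log2 difference -3.66). Of 10 measured receptors and coreceptors 4 rose and 4 fell in the first, and 3 rose and 4 fell in the second. Of 11 SMADs and inhibitors 5 rose and 3 fell, then 5 rose and 2 fell. BMPR2 rose in both, by 2.75 (limma adjusted p = 1.01e-09) and 1.87, and SMAD9 by 2.21 and 2.40. SMAD7 rose from 869.6 to 3029 towards the Dox-labelled group (1.78). Of the 16 further responsive genes 8 rose and 3 fell in the first and 11 rose and 2 fell in the second, beside the same shares. SNAI2, a mesenchymal and neural crest factor, rose by 3.70 and 3.99 and the osteoblast factor RUNX2 by 3.22 and 3.49. Of 8 mesenchyme markers 6 rose and 1 fell in the first comparison, and 7 rose and 1 fell in the second. Their summed level was 23095 to 25594 on the d0 arrays, 23826 to 24708 on the d0 Dox arrays and 47990.0 to 66126 over the day 6 arrays. The part of these markers in the rises above was not tested.

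**Figure D5:**
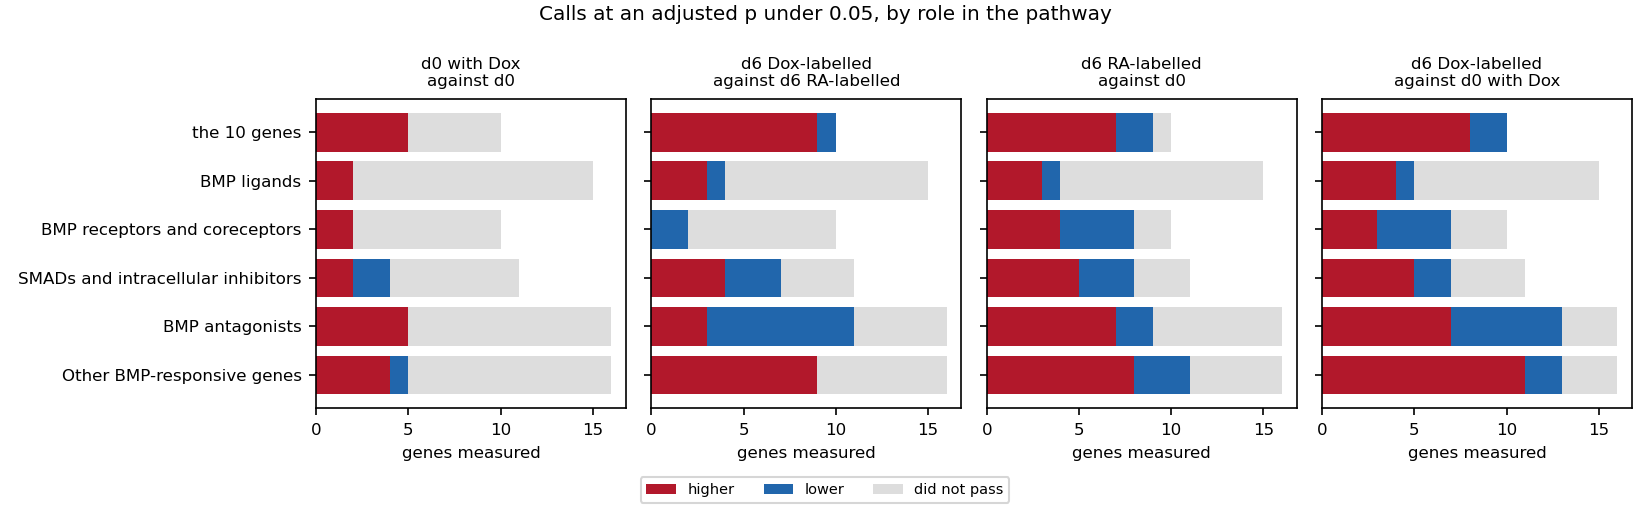
Number of measured genes of each list, the 10 genes first, that were higher, lower or did not pass (limma adjusted p of 0.05) in the 4 main comparisons, as stacked bars. The antagonists show 5 higher and none lower at day 0 (1 lower under quantile normalization) and 3 higher and 8 lower at day 6, and the further responsive genes 9 higher and none lower at day 6.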

How the data were processed

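Total RNA of 12 samples of 1 human line was hybridised to 1-colour Affymetrix arrays. Each deposited value is the intensity of 1 probe set on a linear scale, already summarised by the authors and scaled to 1 trimmed mean (2% off each end, 499.9 on every array, as the values show); the software used for this is not named in the labels. No column was left unused and no 2 columns were identical. Of 54675 probe sets, 41097 had 1 symbol in the platform annotation, 1801 several and 11777 were not listed, and 41043 symbols were updated through the gene ID (RefSeq, GRCh38.p14). Log2(intensity + 16) was fitted over all 12 arrays with group means in limma 3.58.1 (R 4.3.3; lmFit, eBayes), on the brightest 1-symbol probe set of each of 19775 genes, with Benjamini-Hochberg adjustment over all genes at 0.05. Folds on this scale understate changes of dim genes. The script was tested on simulated data. Array number limits the precision. All members were described, with the 3 genes nearest in profile for BMP4, GREM1, ID1 and MSX2 (those for ID3 are not reported here), and of each pathway list up to 2 called genes in each direction with the largest change were named. Members and lists were chosen with earlier results of these data known. Alternatives were another constant, quantile normalization, median centring, a filter, the mean of probe sets, a trended robust fit, a replicate block, the 6 arrays of each comparison alone, and leaving out each array.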

Additional observations from a re-analysis of the deposited data

How the results depend on the processing

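Of 800 member differences recomputed, 767 kept direction and side of the threshold, 28 lost the call, 4 gained it and 1 reversed: ID2 from d0 to the RA-labelled group, never called, was -0.060 without RA-labelled replicate 1 (limma adjusted p = 0.663). Of 256 recomputed counts 1 moved by over 1.5 times: genes called at day 0 were 1522 with the 6 arrays of the comparison fitted alone, against 2552, and the cause was not tested. With 1 array left out at a time that count ran from 1786 to 2446, and the members called ran from 5 to 6 at day 0, were 10 at day 6, and ran from 8 to 9 and from 9 to 10 in the RA-labelled and Dox-labelled time comparisons. GREM1 at day 0 passed with the mean of its probe sets (limma adjusted p = 0.0155), among genes of at least median level (0.0248), in the trended robust fit (0.0189) and without Dox-labelled day 6 replicate 2 (0.0359), within 0.0155 to 0.238 over all settings. The ID3 rise to the Dox-labelled group was lost under quantile normalization (0.14, limma adjusted p = 0.135). With the replicate number as a block, 5, 10, 8 and 9 members were called in the 4 comparisons, in the order of the report, and 21 of 30 neighbouring levels differed; BMP4 to the RA-labelled group (limma adjusted p = 0.0716) and ID3 to the Dox-labelled group (0.0809) lost their calls. Same-numbered arrays of different groups correlated at -0.00843 to 0.0483 in their deviations from the group means, none over 0.1, so the numbers were not taken as pairs; 9 of 12 arrays had as best correlate outside their group one of their own number, a hint from the data, not the design. No called gene of the pathway lists changed sign under quantile normalization or median centring; the latter moved the median of all genes from -0.03 to 0.11 in the comparison of d0 Dox with the Dox-labelled group, where its SMAD list counted 6 higher and 0 lower.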

Other observations

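1 further probe set is annotated to both ID2 and ID2B, a near copy, and was left out of the counts above because its signal cannot be assigned to either. It read 400.5 ± 118 at d0, 1450.2 ± 153 at d0 Dox, 163 ± 21.7 for RA-labelled and 451 ± 21.8 for Dox-labelled day 6 cells (SD, n = 3). It rose with Dox at day 0 by 1.86 on the log2 scale (limma adjusted p = 0.000585) and was higher in the Dox-labelled group at day 6 by 1.39 (limma adjusted p = 0.00116), the directions of both ID2 probe sets. From day 0 to day 6 it fell, by 1.18 to the RA-labelled and by 1.65 to the Dox-labelled group, where the brightest ID2 probe set differed by 0.04 and rose by 0.40.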
